A study of Mus musculus with 7 samples.

Results

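The 45 genes described here encode the machinery that copies DNA in S phase: the helicase and its licensing factors, the clamp and clamp loader, the polymerases, the enzymes that mature Okazaki fragments, nucleotide and histone supply, and cyclin E with its kinase. They were taken by gene symbol from a list of replication and S phase genes, and all 45 were found, both among the 50600 entries of the bulk count table and among the 15536 genes of the single-cell table. The transcripts were measured in neural stem and progenitor cells (NSPCs) of the dentate gyrus (DG), the part of the hippocampus where new granule neurons form in adult mice. All mice were C57Bl6J. The bulk data held 4 primary NSPC cultures from mice of 6 to 8 weeks (F1 and F2 from females, M1 and M2 from males), at passages 6 to 15 on poly-d-lysine and laminin with 20 ng/ml each of epidermal growth factor and basic fibroblast growth factor, and whole DG tissue of 1 female (F1) and 1 male (M2) mouse of 7 to 9 weeks. The single-cell library mixed equal numbers of cells from 3 cultures (2 female, 1 male; mice of 6 to 9 weeks, same medium and passages), which cannot be separated by culture. Whole DG holds mostly cells that do not divide, so it stands here as a tissue reference and not as a matched stem cell population.

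Replication is prepared in G1 phase, when the origin recognition complex, Cdc6 and Cdt1 load the Mcm2 to Mcm7 helicase onto DNA, and it starts in S phase, when kinases add Cdc45 and the GINS complex to that helicase. Polymerase alpha with primase starts each strand, replication factor C opens the PCNA clamp around DNA, and polymerases delta and epsilon extend the strands. Many of these genes are known targets of the E2F transcription factors, which act at the passage from G1 to S phase, and in the adult DG the process is known to be limited to a small population of stem and progenitor cells.

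Bulk totals were 9917697 to 11747408 counts per culture library and 16676618 and 17351636 in whole DG. Cultures were made with the Clontech HT kit and whole DG with the NEBNext Ultra II Directional kit, so effects of kit and of group cannot be told apart below. Markers of neurons, microglia and endothelium were lower in the cultures than in whole DG, whereas some glial markers were not. At an adjusted p of 0.05 (edgeR, described below), 41.7% of all 18088 tested genes were lower in the cultures and 35.6% were higher. The summed level of 10 neuronal markers was 759 to 938 counts per 1000000 (CPM) in cultures against 11426 and 12109 in whole DG, with 10 of 10 lower. Map2 made up most of that sum in the cultures and was not low there, at a mean of 817 against 1200 CPM. The summed levels of the next 2 lists are means. Those of 6 microglial and 6 endothelial markers were 12.6 against 220.1 and 5.11 against 131 CPM. All 12 were lower, with Aif1, C1qa and Cldn5 at 0 counts in every culture. Among 6 astrocyte and 6 oligodendrocyte markers 4 and 5 were lower and 0 higher. Not called were Aldoc at 340 against 690, Gja1 at 179.6 against 190.3 and Cnp at 118 against 114 CPM. Of 6 markers of oligodendrocyte precursors 4 were lower, with Sox10 at 0 counts in every culture, Cspg4 was higher (121 against 18.6 CPM) and Olig2 was not called (24.9 against 21.5), and their summed level was 94.6 to 248.7 CPM in cultures against 165 and 174 in whole DG. Of the stem and progenitor markers reported here, Nes (at 1214 against 9.72), Vim, Fabp7 and Slc1a3 were higher and Sox2, Hopx and Dcx were lower, while Neurog2 was at 0 counts in every culture. The part of these differences in tissue makeup in the results below was not tested.

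The promoters of these genes were searched for the letters that E2F factors are known to bind. RefSeq windows (mouse assembly GRCm38.p6, 250 bases before to 50 bases after a start) were found for 37 of the 45 genes. The E2F letters searched were TTTGGCGC, TTTCCCGC, TTTGCCGC and TTTCGCGC on both strands. They occurred in 14 of the 37 genes (37.8%), against 4.31% of the 11804 genes with a window that could be tested in the bulk data and 2.60% of all 27025 genes with one. Windows of 5 genes are shown by their last 160 bases before the start, 5′ to 3′ on the gene's strand, with the E2F letters in capitals. They are shown because they cover licensing, polymerase and nucleotide genes with different numbers of matches. Mcm6 and Mcm5 carry 2 such matches that overlap each other, and Mcm6 a further one. Cdc6 and Pola1 carry 1, and Rrm1 none, although all 5 transcripts were higher in the cultures. These windows lie at chr1:128359706-128359865 (minus strand), chr8:75109349-75109508 (plus), chr11:98907991-98908150 (plus), chrX:93632156-93632315 (minus) and chr7:102441535-102441694 (plus). None of them holds an exon base of the GENCODE M21 annotation, and 4 lie outside its genes. The Cdc6 window lies in an intron of a longer Cdc6 model that begins upstream of the RefSeq start.
Mcm6: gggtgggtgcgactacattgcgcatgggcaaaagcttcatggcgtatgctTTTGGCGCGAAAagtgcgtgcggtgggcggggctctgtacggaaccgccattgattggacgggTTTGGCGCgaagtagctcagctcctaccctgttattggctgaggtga
Mcm5: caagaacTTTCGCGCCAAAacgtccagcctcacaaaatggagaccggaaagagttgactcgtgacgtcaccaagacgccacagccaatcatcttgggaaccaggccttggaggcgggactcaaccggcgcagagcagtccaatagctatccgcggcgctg
Cdc6: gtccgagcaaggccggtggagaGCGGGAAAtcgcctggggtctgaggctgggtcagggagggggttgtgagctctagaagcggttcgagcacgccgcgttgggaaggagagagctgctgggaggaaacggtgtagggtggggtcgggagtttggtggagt
Pola1: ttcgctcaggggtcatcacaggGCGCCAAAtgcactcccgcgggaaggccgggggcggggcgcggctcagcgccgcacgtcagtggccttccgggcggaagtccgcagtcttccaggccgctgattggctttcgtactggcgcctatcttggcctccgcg
Rrm1: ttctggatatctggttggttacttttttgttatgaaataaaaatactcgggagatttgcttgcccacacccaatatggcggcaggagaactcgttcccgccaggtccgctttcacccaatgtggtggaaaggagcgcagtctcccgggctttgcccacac

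Matches were most frequent among the licensing and helicase genes, where 7 of 10 genes with a window had one (Mcm3, Mcm5, Mcm6, Mcm7, Orc1, Cdc6 and Cdt1). The other 7 genes were Gins3, Rfc3, Pclaf, Pola1, Pold1, Lig1 and Cdk2. None of the 4 nucleotide supply genes and none of the 4 histone supply genes had these letters in this window. A list of 69 other replication genes was similar, with 33.9% of 59 genes. Among 25 genes of G2 phase and mitosis the pattern was the opposite: 4.55% of 22 genes had E2F letters, while 77.3% had TTTGAA, a core of the cell cycle genes homology region (CHR), against 16.2% of the replication genes and 14.3% of tested genes. CCAAT, read on both strands, occurred in 67.6% of the replication genes, 90.9% of the G2 and mitosis genes and 42.8% of tested genes. Mean GC content of the windows was 59.0% for the replication genes, 59.4% for G2 and mitosis genes and 60.2% for tested genes. A match describes letters only and does not show that a factor binds there.

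**Figure D1:**
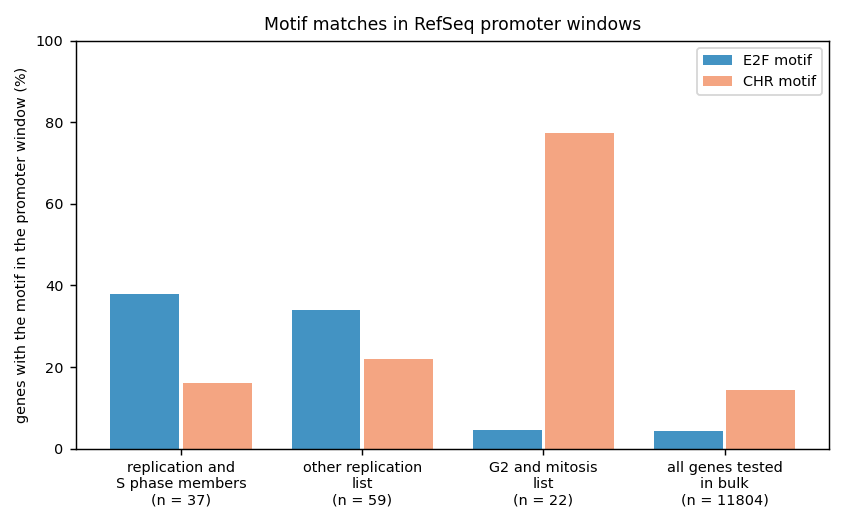
Share of genes (%) whose RefSeq promoter window holds E2F letters or the CHR letters TTTGAA, for the replication and S phase genes, the other replication genes, the G2 and mitosis genes and all genes tested in bulk. E2F letters stand at 37.8% in the replication genes and 4.55% in the G2 and mitosis genes, and the CHR letters at 16.2% and 77.3%.

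The comparison of cultures with whole DG asked how dividing NSPCs in culture differ from the tissue they came from. Of the 45 replication genes, 44 were higher in the cultures and 0 were lower at an adjusted p of 0.05 (edgeR quasi-likelihood test, Benjamini-Hochberg adjusted over 18088 genes), where 35.6% of all tested genes were higher. A difference of at least 8-fold was reached by 33 of the 45, against 6.24% of all genes tested, and 42 of 45 passed a test for more than a 2-fold rise, against 20.3%. Every culture lay above both whole DG libraries for 44 of 45, against 38.6%. The median log2 difference was 3.88, and that of all tested genes −0.13. Together the transcripts took 0.649%, 0.656%, 0.509% and 0.607% of counts in cultures F1, F2, M1 and M2 and 0.0597% and 0.0624% in whole DG. In bulk RNA, more cells that hold a transcript and more of it per cell cannot be told apart. Values below are CPM on library sizes scaled by trimmed means (TMM), and log2 differences are cultures minus whole DG with their standard error (SE).

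**Figure D2:**
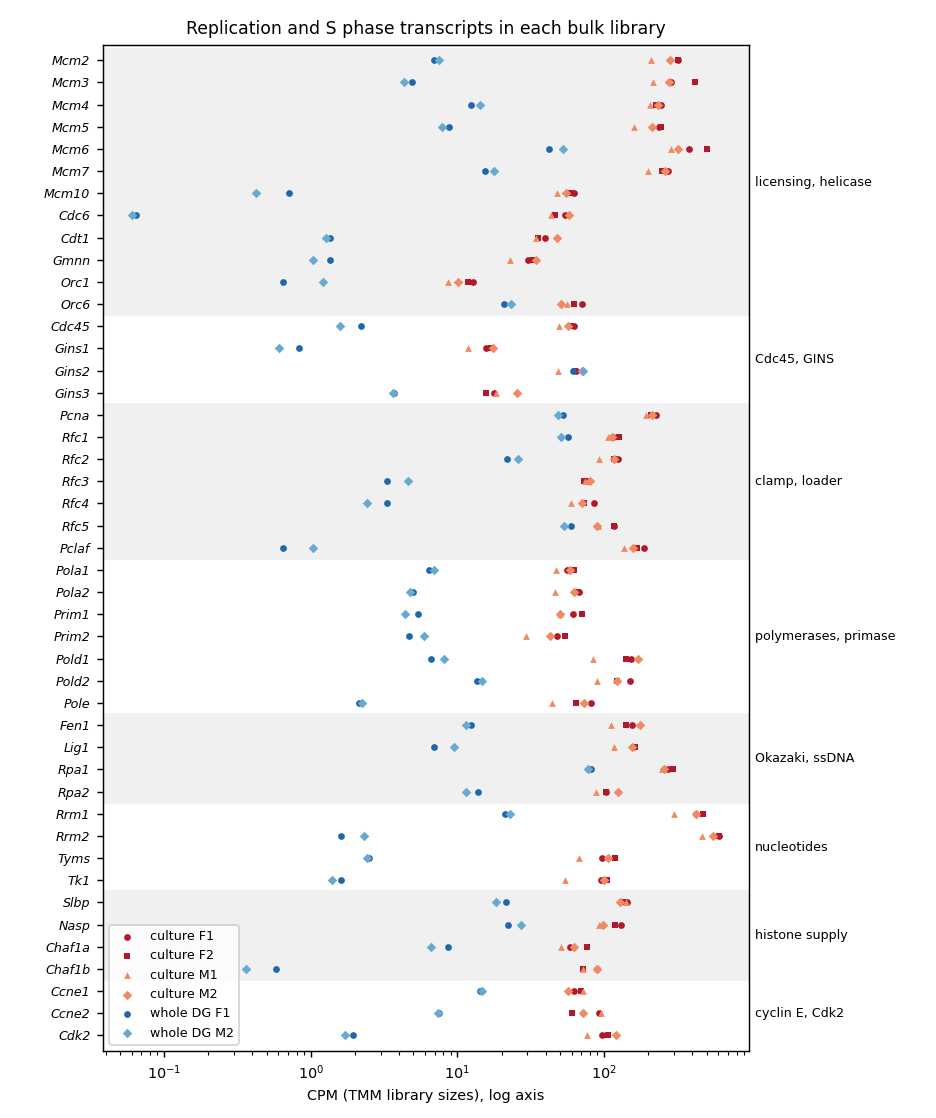
Level of each of the 45 transcripts (CPM, log axis) in the 4 cultures (red and orange symbols) and the 2 whole DG libraries (blue symbols), ordered by role. Every culture lies above both whole DG libraries for 44 transcripts, and only the Gins2 values overlap.

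Licensing and helicase transcripts rose without exception, 12 of 12, by a median of 4.66 (edgeR adjusted p 1.93e-07 to 1.15e-04). Mcm6, a helicase subunit, stood at 379.8, 504, 284 and 318 CPM in cultures F1, F2, M1 and M2 and at 42.4 and 52.3 CPM in whole DG F1 and M2. Mcm3, another subunit, stood at 284, 414, 217 and 277 against 4.90 and 4.31 CPM. Both were highest in F2 and lowest in M1, with every culture far above the tissue, and their log2 differences were 2.97 (SE 0.27) and 6.01 (SE 0.34). The 4 other subunits lay between them, with 5.29 for Mcm2, 4.10 for Mcm4, 4.68 for Mcm5 and 3.88 for Mcm7. Per kilobase of exon (RPKM, computed here from the annotation), the 6 subunits of the helicase ring lay within 1.962-fold of each other in the cultures, from 40.6 RPKM for Mcm2 to 79.6 for Mcm6. In whole DG they spread 9.79-fold, from 1.04 for Mcm2 to 10.1 for Mcm6. RPKM here divides by all annotated exon bases of a gene, 6956 for Mcm2 and 4666 for Mcm6. Orders and spreads between genes in RPKM, here and below, therefore depend on the annotation.

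The loading factor Cdc6 differed most of all 45, with a log2 difference of 9.44 (SE 0.34). It stood at 53.9, 46.2, 43.5 and 57.3 CPM in cultures F1, F2, M1 and M2, and each whole DG library held 1 count, 0.0644 and 0.0607 CPM. The ratio of 2231 counts in cultures to 2 in whole DG, scaled for library size, was 804 (95% counting interval 222 to 6640.4), which covers counting error only, since bulk reads carry no molecular identifiers. Cdc6 lies on chromosome 11 from 98907801 to 98923940 (GRCm38). Cdt1, which acts with Cdc6, was at 39.2 ± 5.84 (mean ± SD, n = 4 cultures) against 1.31 ± 0.0555 CPM (n = 2), and Gmnn, which encodes the Cdt1 inhibitor geminin, at 30.1 ± 5.05 against 1.19 ± 0.227 CPM. The loading factor and its inhibitor had log2 differences of 4.89 (SE 0.25) and 4.65 (SE 0.29). Mcm10, which helps to activate the loaded helicase, differed by 6.61 (SE 0.28). The origin recognition subunits differed less. Orc1 stood at 10.8 against 0.929 CPM (3.52) with the lowest level per kilobase of all 45 in the cultures (3.105 RPKM). Orc6 had the smallest difference of the group, 70.5, 62.1, 56.1 and 50.7 CPM in cultures F1, F2, M1 and M2 against 20.6 and 23.2 CPM in whole DG, a log2 difference of 1.45 (SE 0.18).

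Of the 4 genes that turn the loaded helicase into the active one, 3 rose. Cdc45 stood at 62.0, 59.7, 48.9 and 56.9 CPM in cultures F1, F2, M1 and M2 against 2.19 and 1.58 CPM in whole DG (4.91, SE 0.23, edgeR adjusted p = 5.66e-07). The GINS subunits Gins1 and Gins3 differed by 4.41 and 2.40. Gins2, a subunit of the same GINS complex, was the only one of the 45 not called: 64.8, 63.5, 48.8 and 70.7 CPM in the cultures against 61.1 and 71.9 CPM in whole DG (−0.10, SE 0.17, edgeR adjusted p = 0.596). Its 2 groups overlap. Gins2 (chromosome 8 from 120578633 to 120589304) shares 67.3% of its exon bases with Gse1 on the opposite strand, and Gse1 was at 22.1 in cultures against 160.3 CPM in whole DG. The sources used here do not say whether counting used strand, so counts of both genes may be mixed in either group, and the part of Gse1 in the Gins2 value was not tested. With trends over gene length and GC content removed, Gins2 stood at 0.77 (edgeR adjusted p = 0.00443), higher in cultures. That setting also moved the median of all tested genes from −0.13 to 0.50. In the single cells, counted from the 3′ end, Gins2 had 3541 UMIs (unique molecular identifiers), the most of its group.

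Gins2 is 1 of 8 genes of the set that share at least 10% of their exon bases with a gene on the opposite strand. Fen1 shares 78.8% with Gm10143, which stood at 139 against 10.9 CPM, close to Fen1 itself (145 against 11.9). Chaf1a shares 52.5% with Ubxn6, which was level between the groups (74.4 against 73.9 CPM). Rfc5 and Rfc4 share 10.7% and 12.7% with Wsb2 and Eif4a2, which were lower in the cultures (23.2 against 262 and 73.6 against 762 CPM). Ccne2, Rfc2 and Orc1 share 17.4%, 15.1% and 10.8% with Ints8, Lat2 and Gm12743. These 3 neighbours stood at 87.5 against 32.6, 2.10 against 1.69 and 2.78 against 0.963 CPM. Among the 28 replication genes that share no exon base with another annotated gene, a choice made after seeing the data, 28 were higher, with a median of 4.21.

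Clamp and clamp loader transcripts rose, 7 of 7, but by less than most of the set: the median was 2.23 (edgeR adjusted p 1.89e-07 to 0.00151). Pcna, the sliding clamp, stood at 226, 209.9, 194 and 212 CPM in cultures F1, F2, M1 and M2 and at 52.8 and 48.2 CPM in whole DG, a log2 difference of 2.06 (SE 0.13). Its binding partner Pclaf was almost absent from the tissue, 0.644 and 1.03 CPM, and stood at 188, 167, 136 and 157 CPM in the cultures, a difference of 7.57 (SE 0.27; chromosome 9 from 65890237 to 65903266). The clamp thus had the highest level per kilobase of the 45 in whole DG (21.05 RPKM), and its partner one of the lowest (0.174 RPKM).

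The 5 subunits of replication factor C, the clamp loader, differed unequally. Rfc3 and Rfc4 differed by 4.26 and 4.65, Rfc2 by 2.23, Rfc1 by 1.10 and Rfc5 by 0.88 (SE 0.17, edgeR adjusted p = 0.00151). Rfc5 stood at 117, 117, 91.4 and 89.0 CPM in cultures F1, F2, M1 and M2 against 59.3 and 53.4 CPM in whole DG, without overlap. Rfc1 and Rfc5 were not called in the test for more than 2-fold (edgeR adjusted p = 0.143 and 0.702). Rfc1, the large subunit, differed least of the 28 genes that share no exon bases with another gene. Per kilobase the subunits lay within 2.63-fold of each other in cultures and within 11.03-fold in whole DG.

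All 7 polymerase and primase transcripts rose, by a median of 3.57 (edgeR adjusted p 2.21e-06 to 2.78e-05). Pold1, the catalytic subunit of polymerase delta, stood at 151, 142, 83.8 and 171 CPM in cultures F1, F2, M1 and M2 and at 6.64 and 8.07 CPM in whole DG. Pold2, its second subunit, stood at 149, 123, 89.4 and 122 against 13.6 and 14.7 CPM. Culture M1 was lowest for both, and their log2 differences were 4.22 (SE 0.33) and 3.09 (SE 0.23). Pole, the catalytic subunit of polymerase epsilon, had the largest difference of the group, 4.90 (SE 0.32), from 2.13 and 2.25 CPM in whole DG to 81.1, 64.2, 44.2 and 73.3 in the cultures. Prim2, the large primase subunit, had the smallest, 3.04 (SE 0.29), from 4.70 and 5.89 to 47.7, 54.2, 29.5 and 42.8 CPM. Pola1, Pola2, Prim1 and Prim2, which form 1 complex, differed by 3.06, 3.64, 3.57 and 3.04, and their levels per kilobase spread 2.37-fold in cultures and 2.16-fold in whole DG.

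Of the genes for single-stranded DNA and Okazaki fragments, 4 of 4 rose (edgeR adjusted p 1.27e-06 to 6.77e-06). Rpa1, the large subunit of the protein that coats single-stranded DNA, stood at 272, 295, 248 and 256 CPM in cultures F1, F2, M1 and M2 and at 80.9 and 78.2 CPM in whole DG, a difference of 1.75 (SE 0.13). It had the highest CPM of the 45 in the tissue. Rpa2, its partner, differed by 3.05 (SE 0.20). Lig1, the ligase that joins Okazaki fragments, stood at 158, 162, 118 and 155 against 6.89 and 9.53 CPM, a difference of 4.17 (SE 0.23), and Fen1, the flap endonuclease that trims them, differed by 3.61 within the limit of its overlap.

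Nucleotide supply had the largest median of the 8 groups, 5.59, with 4 of 4 higher (edgeR adjusted p 1.19e-07 to 2.71e-06). Rrm2, the small subunit of ribonucleotide reductase, stood at 611, 610.0, 468 and 549.6 CPM in cultures F1, F2, M1 and M2 and at 1.61 and 2.31 CPM in whole DG, a difference of 8.15 (SE 0.26; chromosome 12 from 24708241 to 24714146). It was the most abundant of the 45 in the cultures, also per kilobase (202 ± 24.3 RPKM). Rrm1, the large subunit, stood at 421, 469, 300.5 and 424 against 21.1 and 22.8 CPM, a difference of 4.20 (SE 0.23). Tyms, which makes thymidylate, and Tk1, which salvages thymidine, differed by 5.30 (SE 0.30) and 5.88 (SE 0.37). The paralogs known from cells that do not replicate went the other way: Rrm2b, the p53-inducible small subunit, was at 17.3 against 56.4 CPM (−1.71, SE 0.17, edgeR adjusted p = 3.46e-05), and Tk2, the mitochondrial thymidine kinase, at 20.2 against 29.2 CPM (−0.53, adjusted p = 0.0418). Paralogs of the helicase subunits that take no part in licensing differed by less than Mcm2 to Mcm7: Mcm8 by 1.68 (adjusted p = 3.44e-04), while Mcm9 was at 27.6 against 21.2 CPM and did not pass (adjusted p = 0.0526).

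Histone supply genes rose, 4 of 4 (edgeR adjusted p 2.18e-07 to 2.00e-05). Slbp, which binds the stem-loop of replication-dependent histone mRNAs, stood at 143, 135, 140.2 and 128 CPM in cultures F1, F2, M1 and M2 and at 21.6 and 18.2 CPM in whole DG (2.78, SE 0.15). The histone chaperone Nasp stood at 131, 118, 92.1 and 99.0 against 22.1 and 27.1 CPM (2.16, SE 0.20). The subunits of chromatin assembly factor 1 differed unequally: Chaf1b was at 89.7, 71.3, 72.2 and 89.1 against 0.580 and 0.364 CPM (7.39, SE 0.28), and Chaf1a at 61.8 against 7.59 CPM (3.02, SE 0.23), within the limit of its overlap with Ubxn6.

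Cyclin E and its kinase rose, 3 of 3 (edgeR adjusted p 5.96e-07 to 6.92e-06). Cdk2 stood at 97.1, 106, 76.5 and 121 CPM in cultures F1, F2, M1 and M2 and at 1.93 and 1.70 CPM in whole DG (5.78, SE 0.27). Of its cyclins, Ccne2 was at 91.7, 60.1, 94.7 and 72.0 against 7.47 and 7.34 CPM (3.42, SE 0.24), within the limit of its overlap with Ints8. Ccne1 was at 62.2, 69.5, 72.0 and 56.5 against 14.2 and 14.7 CPM (2.17, SE 0.16). Unlike most of the set, Ccne1 and Ccne2 were highest in culture M1.

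**Figure D3:**
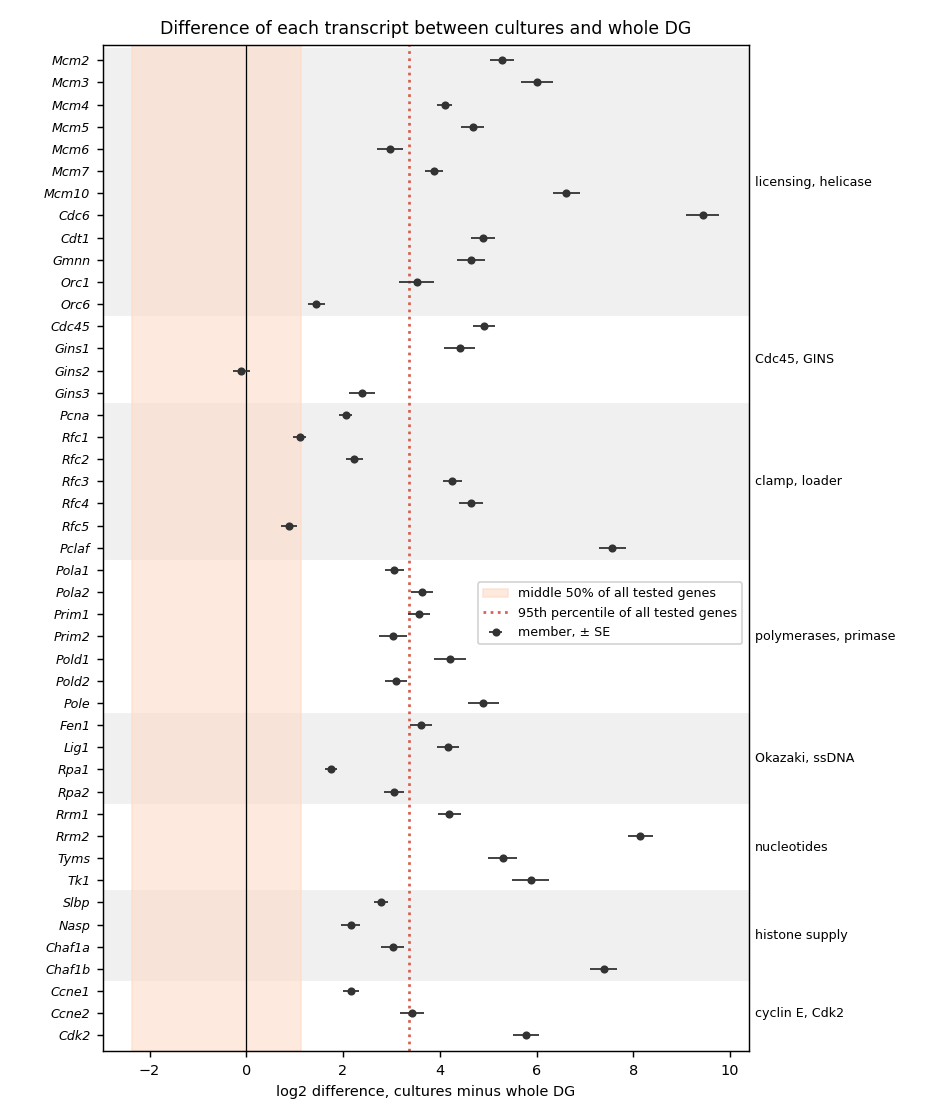
Log2 difference (cultures minus whole DG, ± SE) of each transcript, ordered by role, with the middle 50% of all tested genes shaded and their 95th percentile (3.36) dotted. Cdc6, Rrm2, Pclaf and Chaf1b lie farthest to the right, and Gins2, Rfc5, Rfc1 and Orc6 nearest to 0.

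Beyond the 45, 56 of 69 other replication genes were higher and 7 lower, against 35.6% and 41.7% of all tested genes. Their median was 1.84. The largest differences were those of Ticrr, which helps to recruit Cdc45 (29.5 CPM against 2 counts in whole DG, a ratio of 479, counting interval 132 to 3957), Dscc1, part of an alternative clamp loader (13.8 CPM against 1 count, 442, 79.1 to 17501), and Uhrf1, which carries DNA methylation through replication (7.68). The lowest were Donson (−1.72), Rrm2b and E2f1 (−1.19, SE 0.36, edgeR adjusted p = 0.0154). Of the 8 E2F genes, 6 were higher, led by E2f7 (7.27) and E2f8 (6.00), which are known as repressors of the family, and E2f2 (2.73). E2f6, E2f5 and E2f4 differed by 1.69, 0.99 and 0.77, E2f3 stood at 39.3 against 39.3 CPM without a call, and E2f1, known as an activator, was the 1 lower at 2.40 against 5.47 CPM. The 25 genes of G2 phase and mitosis were all higher, with a median of 5.68, from 3.72 for Kif20a, 4.13 for Nusap1 and 4.19 for Mki67 to 7.93 for Ccnb1, 8.09 for Cdc20 and 8.53 for Cdk1.

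Among the 4 cultures the replication transcripts had a coefficient of variation with a median of 15.0%, from 4.67% for Rfc3 and 4.81% for Slbp to 27.4% for Pold1 and 28.0% for Mcm3, whereas the G2 and mitosis genes had a median of 31.2%. Culture M1 was lowest for 37 of the 45 and for 25 of 25 G2 and mitosis genes. The share of all tested genes lowest in M1 was not counted, so this may not be particular to these genes. The summed level of the 45 was 6296, 6458, 4812 and 5943 CPM in F1, F2, M1 and M2, and that of the G2 and mitosis genes 3304, 4159, 1804 and 3517 CPM. F2 was highest and M1 lowest in both sums.

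Female and male cultures were compared because the study used both. None of the 45 passed an adjusted p of 0.05 (edgeR quasi-likelihood test on 4 cultures, where 4 of 15140 genes, 0.0264%, passed), and DESeq2 also called 0. At an unadjusted p of 0.05 there were 3, Mcm6, Rfc5 and Nasp, against 6.22% of all genes, and the female and male values did not overlap for 21 of 45, against 36.6%. Female means were higher for 38 of 45, with a median log2 difference (female minus male) of 0.19 and 0.00 over all genes. Mcm6 had the largest, 442 against 301 CPM (0.55, SE 0.19, adjusted p = 0.747). Only 2 cultures of each sex were compared, and M1, a male culture, was the lowest for 37 of the 45, a share not counted over all genes.

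The single-cell library shows in which cells these transcripts stood together. It held 14912 cells with as many distinct barcodes, 2001 to 8531 UMIs each, in 6 deposited clusters of 3925, 3297, 3260, 1910, 1428 and 1092 cells (numbered 0 to 5). The clusters were made from the same genes and from 1 pooled library, so their levels are a description without a test, and intervals cover counting error only. The 45 transcripts had 168322 UMIs, 0.270% of all. Their summed level was 9.58, 19.5, 51.0, 35.5, 26.6 and 7.76 UMIs per 10000 in clusters 0 to 5. Cluster 2 stood highest, clusters 3 and 4 between, and clusters 0 and 5 lowest. The G2 and mitosis genes stood at 4.35, 34.5, 37.2, 8.17, 91.5 and 3.25, highest in cluster 4, and high in cluster 2 beside the replication genes. Median UMIs per cell were 3749, 3431, 4731, 4127, 5270.5 and 4086, so each cell was also thinned to 2000 UMIs: the median cell then held 2, 4, 10, 7, 5 and 1 UMIs of the 45 transcripts.

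By gene, 38 of the 45 had their highest level in cluster 2, 29 of them with intervals separate from the next cluster, where 16.99% of 8203 genes with at least 500 UMIs were highest in that cluster. The other 7 (Mcm3, Mcm4, Mcm5, Cdc6, Cdt1, Orc1 and Chaf1a) were highest in cluster 3, against 10.7% of those genes. Only 2 of these 7 had intervals separate from the next cluster. The lowest level was in cluster 5 for 36, in cluster 0 for 6 and in cluster 4 for 3 (Cdc6, Cdt1 and Ccne1). Over the 8203 genes, separate intervals and the cluster of the lowest level were not counted. The highest level exceeded the lowest by a median of 7.58-fold over the 44 genes with UMIs in every cluster, and by 1.44-fold over the 8203 genes. Orc1 had 193 UMIs in all and 0 in cluster 5, which held 4570292 UMIs and so allows up to 0.00656 UMIs per 10000 (3 counts).

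**Figure D4:**
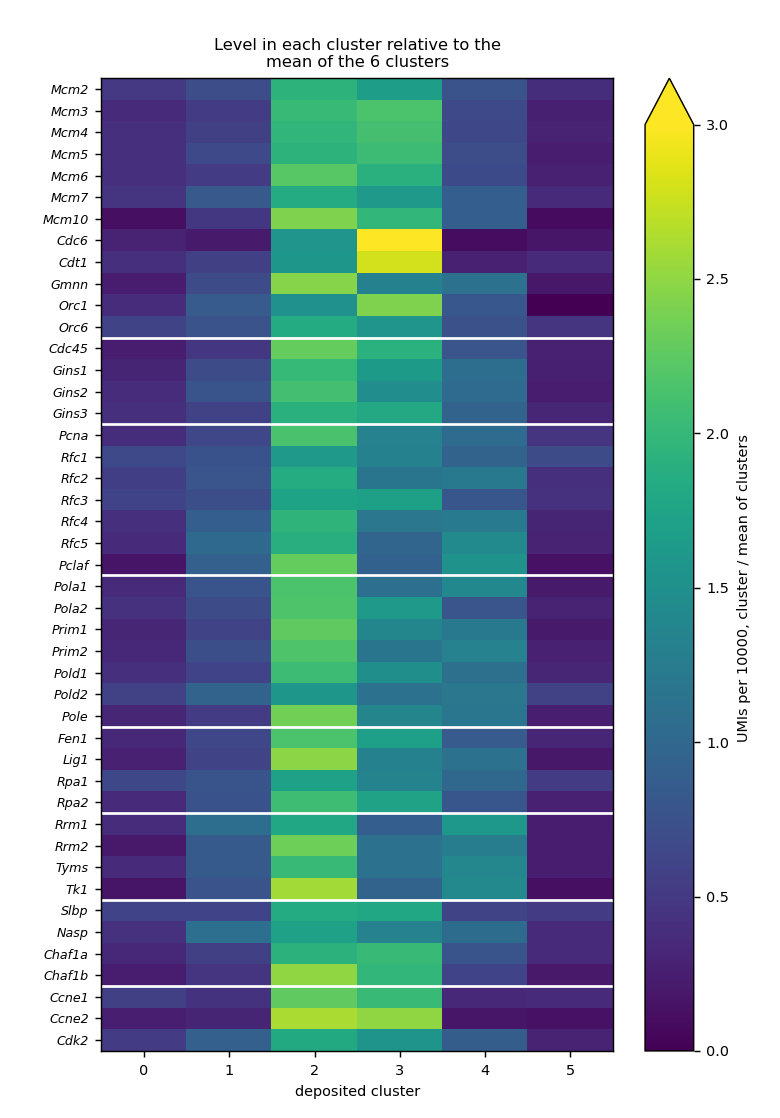
Level of each transcript in clusters 0 to 5 divided by its mean over the 6 clusters (colour scale 0 to 3, higher values at the top colour), with white lines between role groups. Most rows are brightest in cluster 2, while Cdc6, Cdt1 and Orc1 are brightest in cluster 3.

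Cdc6, Cdt1 and Orc1 on one side and the nucleotide enzymes on the other differed in opposite directions between clusters 2 and 3. Cdc6 stood at 0.0311, 0.0230, 0.165, 0.383, 0.0108 and 0.0197 UMIs per 10000 in clusters 0 to 5, so its level in cluster 3 was 2.33 (1.963 to 2.76) times that in cluster 2. Cdt1 stood at 0.0655, 0.0938, 0.261, 0.458, 0.0444 and 0.0613, with a ratio of 1.75 (1.52 to 2.02), and Orc1 had a ratio of 1.59 (1.10 to 2.28). These were the 3 whose intervals lay above 1. For 32 of the 45 the interval lay below 1, and the median ratio was 0.792, where that of the 8203 genes was 0.996. How many of those genes had an interval below 1 was not counted. The salvage enzyme Tk1 stood at 0.104, 0.465, 1.57, 0.578, 0.857 and 0.0722 and had the lowest ratio, 0.368 (0.333 to 0.407). Rrm2 stood at 0.282, 1.13, 3.14, 1.495, 1.69 and 0.306, with a ratio of 0.476 (0.447 to 0.507). Rrm1 stood at 0.355, 1.014, 1.67, 0.8294, 1.49 and 0.221, with a ratio of 0.496 (0.455 to 0.541). The helicase subunits lay near equality, with a summed level of 7.08 in cluster 2 and 6.81 in cluster 3. The sum for nucleotide supply was 7.91 and 3.76.

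Cluster 4, where the G2 and mitosis genes were highest, held each of the 45 at a lower level than cluster 2. All 45 intervals of the ratio lay below 1, with a median of 0.484, where that of the 8203 genes was 1.007. The share of those genes with an interval below 1 was not counted. The size of the gap to cluster 2 differed by role. Cdc6 stood at 0.0655 (0.0280 to 0.131) of its cluster 2 level, Ccne2 at 0.0698 (0.0449 to 0.104), Ccne1 at 0.146 (0.114 to 0.184) and Cdt1 at 0.170 (0.115 to 0.243), the 4 lowest ratios. Rrm1 had the highest, 0.893 (0.832 to 0.958), followed by Rfc5 at 0.759 (0.681 to 0.845). Of the cyclin E genes, Ccne1 stood at 0.177, 0.137, 0.702, 0.630, 0.102 and 0.112 and Ccne2 at 0.0463, 0.0563, 0.483, 0.461, 0.0337 and 0.0263, high in clusters 2 and 3 and lower in the other 4.

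**Figure D5:**
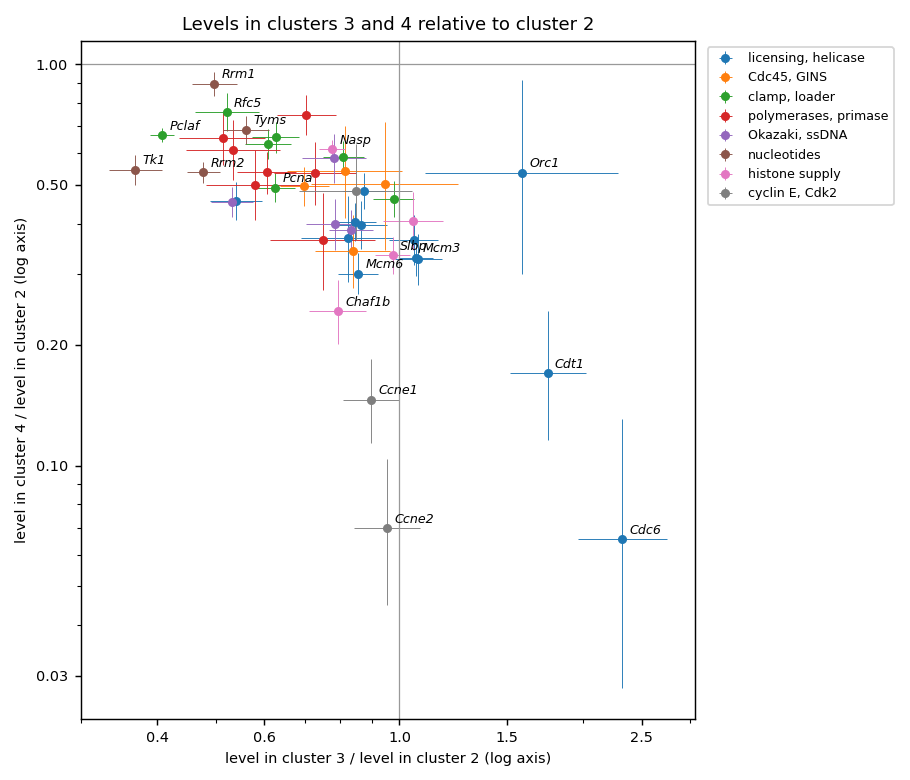
Ratio of each transcript's level in cluster 3 (horizontal, log axis) and in cluster 4 (vertical, log axis) to its level in cluster 2, with 95% counting intervals, coloured by role. Of the 7 transcripts to the right of 1 on the horizontal axis, Cdc6, Cdt1 and Orc1 have intervals wholly above 1. The nucleotide genes lie to the left, and all 45 lie below 1 on the vertical axis.

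Pclaf was the most abundant of the set in single cells, with 20788 UMIs at 0.529, 2.80, 6.96, 2.83, 4.63 and 0.429 per 10000 in clusters 0 to 5. Nasp followed with 14025 (0.907, 2.32, 3.64, 2.82, 2.24 and 0.786) and Rrm2 with 9224. These 3 made up 26.2% of the UMIs of the 45. A Pclaf UMI was found in 94.6% of cells of cluster 2 and in 87.0% of cluster 4, against 17.3% of cluster 0 and 14.5% of cluster 5. Thinned to 2000 UMIs, the shares were 74.9% in cluster 2, 58.1% in cluster 4, 9.45% in cluster 0 and 7.23% in cluster 5. No cluster is known to lack these transcripts, so the share due to free RNA was not measured, and doublets were not removed here. Cells without a UMI of any of the 45 made up 6.22% of cluster 0 (95% exact binomial interval 5.48 to 7.02%) and 6.41% of cluster 5 (5.03 to 8.03%). In cluster 2 they were 0 of 3260, which allows a share of up to 0.0920% by the limit of 3 counts and 0.113% by the exact binomial interval.

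Rfc1, Pold2, Rpa1, Slbp and Orc6 were the most even of the set across clusters, with a highest level 2.47 to 3.96 times the lowest, and Cdc6 the least even of the 44 with UMIs in every cluster (35.5 times). Orc1, at 0 UMIs in cluster 5, has no such ratio. Rfc1 stood at 0.583, 0.670, 1.44, 1.16, 0.846 and 0.617, Orc6 at 0.435, 0.547, 1.31, 1.11, 0.531 and 0.330 and Slbp at 0.541, 0.545, 1.65, 1.61, 0.551 and 0.481 in clusters 0 to 5. Of these 5, Rfc1, Orc6 and Rpa1 were also among the 5 called genes that differed least between cultures and whole DG. The clamp Pcna stood at 0.344, 0.568, 1.88, 1.18, 0.928 and 0.394 and the ligase Lig1 at 0.212, 0.468, 1.89, 1.00, 0.857 and 0.147, a wider range. Mcm3 stood at 0.315, 0.460, 1.75, 1.86, 0.575 and 0.232, and Gins2 at 0.199, 0.403, 1.09, 0.763, 0.543 and 0.120. Gins2, the 1 gene not called in bulk, was thus highest in cluster 2 and lowest in cluster 5 like most of the set. Chaf1b, with 0.0721, 0.137, 0.744, 0.589, 0.180 and 0.0613, was among the 3 with the highest level in cluster 2 relative to their mean over clusters, beside Ccne2 and Tk1. Rfc5, with 0.159, 0.446, 0.816, 0.425, 0.619 and 0.131, was on the same relative scale among the 3 highest in cluster 1 and in cluster 4, as was Rrm1. Prim1 stood at 0.120, 0.229, 0.850, 0.515, 0.457 and 0.0810, Rpa2 at 0.219, 0.442, 1.21, 1.011, 0.469 and 0.164 and Cdc45 at 0.0456, 0.0887, 0.428, 0.359, 0.147 and 0.0525.

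Levels in the bulk cultures and in single cells ranked the 45 alike in part, with a Spearman's rho of 0.648 across genes for CPM and 0.602 for RPKM. These are different cultures of the same kind, read over the whole transcript in one assay and from the 3′ end in the other, and genes are not independent replicates.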

How the data were processed

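Bulk RNA was counted in 4 NSPC cultures and 2 whole DG libraries, and single cells in 1 library of 3 mixed cultures. The bulk table holds raw counts per gene, as deposited by the authors. Alignment and counting used HISAT2 2.0.6 and featureCounts of Subread, after CASAVA 1.8.2, per the submitters' processing notes. These give GRCh38, a human assembly, as the build, whereas the table lists mouse symbols. How featureCounts treated strand and overlapping genes is not stated in these notes. The single-cell table was deposited with natural log values (ln of 1 plus UMIs per 10000 in a cell), with the cluster number in the cell name. The notes name Cell Ranger 3.1.0 and Seurat 3.1.0, while the labels' protocol gives other versions. Neither states the filter on cells.

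The test of bulk counts was that of edgeR 4.0.16, run in R 4.3.3 (TMM scaling, default filter on low counts, robust quasi-likelihood F test, Benjamini-Hochberg adjustment over all tested genes, threshold 0.05), with group or, in the 4 cultures, sex as the only term. The labels call the cultures separate, so p-values reflect variation among cultures and between 2 mice. RPKM used union exon lengths of GENCODE M21 (GRCm38). UMI counts were recovered from the natural log values, 100% within 0.01 of a whole number. No cells were removed, and no doublet caller was run. Cells were thinned to 2000 UMIs where depth differed. Ratios and levels have exact 95% counting intervals. The fits were tested on simulated counts. The genes described, the related lists and the markers were chosen with earlier results of these data known. A stem and progenitor marker is not reported here. Full values are given for the 2 most abundant genes of each role group, those with the largest and smallest differences, and any gene not called. Single-cell levels are given for many, but not all, of the 2 genes with most UMIs per role and the 3 leading in each cluster. From the related lists the 3 highest, the 3 lowest and paralogs are given. The names F1 and M2 occur in both groups, and nothing in the labels ties them to the same mice. Deviations of the libraries with these names correlated at 0.067 over all tested genes and at 0.0014 without genes of the sex chromosomes. These values cannot decide whether the mice were the same, since all were C57Bl6J and passaged cultures were set against tissue.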

Additional observations from a re-analysis of the deposited data

Results flagged for a closer look

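Lig1, the ligase of Okazaki fragments, stood at 118 CPM in culture M1 and between 155 and 162 CPM in the 3 other cultures, so that M1 lay apart from them by a gap test for groups of 4 (Dixon's, 95% level). Such a test marks about 1 in 20 groups by chance, and 45 genes were examined.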

How the results depend on the processing

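Calls for the 45 genes depended little on the processing: 42 had the same call in all 16 alternatives (717 of 720 combinations). The exceptions were Rfc1 and Rfc5 when a fold above 2 was tested and Gins2, at 0.77 once trends with gene length and GC were removed. That setting moved the median log2 difference of the 45 from 3.88 to 4.39 and of all genes from −0.13 to 0.50, so that 59.4% rather than 46.1% of calls were higher. Other scalings put the median of all genes at −0.23 (DESeq2 size factors) and 0.05 (upper quartile). Leaving out 1 library at a time gave 44 of 45 called each time, medians of 3.78 to 4.04, and 11815 to 14038 genes called. In the 4 libraries named F1 or M2, a replicate block gave 44 members, 13677 genes and a median of 4.04. No replicate block gave 44, 14288 and 4.04. The block fit left 1 residual degree of freedom, so it cannot decide whether the names pair the libraries. Restricting to genes without shared exon bases left 28 of 28. Between sexes, 4 genes were called in all, 60 with DESeq2, 273 with no filter on low counts and 3 to 81 leaving out 1 culture (81 without F1, 13 without F2), and 0 of the 45 in each case. Leaving out a culture leaves 1 sex with 1 library, assumed to vary like the other, so these last counts say nothing of stability. In single cells, the summed level of cluster 2 was 51.7 after thinning, 51.9 without cells over 6000 UMIs and 51.6 as a mean over cells, against 51.0, and that of cluster 3 was 36.1 without those cells, against 35.5. Thinning lowered the mean number of the 45 detected per cell from 15.8, 11.5 and 9.86 in clusters 2, 3 and 4 to 8.36, 6.26 and 4.60. With 2 counts of Cdc6 in whole DG, its fold is uncertain, and the interval given above covers counting error only, not variation between libraries.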
